A study of Mus musculus with 6 samples.

Results

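The macrophage and antigen presentation genes are 31 genes chosen by name, and all 31 were found among the 55487 genes of the deposited table. They cover receptors and surface markers of the macrophage lineage, markers of resident perivascular macrophages, complement component 1q, Fc receptors and their adaptors, lysosomal and effector proteins, receptors for lipid, debris and endotoxin, MHC class II with its invariant chain, and 2 transcription factors. Their RNA was measured in the aortas of 6 male mice, 3 Control and 3 Prdm16 iSM KO, to ask what loss of the transcriptional regulator Prdm16 from smooth muscle cells does to the aortic transcriptome. Both groups were on a C57BL/6 background, carried the Y-linked Myh11-CreERT2 transgene, which restricts Cre activity to smooth muscle cells and limits the study to males, and received 10 injections of tamoxifen from 8 weeks of age. Control mice were Prdm16 W/W and iSM KO mice Prdm16 F/F, with floxed exon 9. Aortas were taken after a washout of 2 weeks and 60 more days, and the adventitial layer was dissected away before RNA extraction. By design, Prdm16 is thus deleted in smooth muscle cells and not in macrophages, and the genes described here were measured in what tissue dissection left.

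Arterial macrophages live mainly in the adventitia and also in the intima, where they take up debris and lipoproteins, scavenge haemoglobin and tag targets with complement. They depend on signals through the Csf1 receptor, and many of the resident cells carry Mrc1, Cd163, Folr2 and Lyve1 on their surface. MHC class II molecules show peptides from engulfed protein to CD4 T cells. Their alpha and beta chains are assembled on the invariant chain Cd74, and macrophages, dendritic cells and B cells all make them.

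Promoter sequence is shown for 4 of the genes, chosen as examples of an element known in MHC class II promoters and of one known in myeloid promoters. MHC class II promoters carry a CCAAT box read by NF-Y, and many myeloid promoters carry a purine-rich GAGGAA box read by PU.1, the product of the member Spi1. The 150 bases before the RefSeq start were read on the GRCm38.p6 build for 21 of the 31 genes, and the other 10 had no window used here. CCAAT, on either strand, was found in 8 of the 21 genes, and 24.5% of all 32851 promoter windows of that length held it. Besides H2-Aa and H2-Eb1 these were Mrc1, Pf4, Cd163, Irf8, Cd68 and Mpeg1, so the box was not particular to MHC class II. GAGGAA, on either strand, was also found in 8 of the 21 genes, against 14.5% of all windows, and Mrc1 and Pf4 held both. The windows are written 5′ to 3′ on the strand of the gene, and capitals mark CCAAT or its reverse complement ATTGG in the MHC class II genes and GAGGAA or its reverse complement TTCCTC in the myeloid genes. They are H2-Aa at chr17:34287824-34287973 on the minus strand, H2-Eb1 at chr17:34305717-34305866 on the plus strand, C1qb at chr4:136886201-136886350 on the minus strand and Itgam at chr7:128062490-128062639 on the plus strand.
H2-Aa: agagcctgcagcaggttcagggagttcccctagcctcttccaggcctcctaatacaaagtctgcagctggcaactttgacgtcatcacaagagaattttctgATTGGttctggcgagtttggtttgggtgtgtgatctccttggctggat
H2-Eb1: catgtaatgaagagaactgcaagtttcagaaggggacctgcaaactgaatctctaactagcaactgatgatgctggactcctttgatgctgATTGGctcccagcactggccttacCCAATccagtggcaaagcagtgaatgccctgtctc
C1qb: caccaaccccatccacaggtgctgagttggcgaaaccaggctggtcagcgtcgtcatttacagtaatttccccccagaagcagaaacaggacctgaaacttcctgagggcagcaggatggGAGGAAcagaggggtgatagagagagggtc
Itgam: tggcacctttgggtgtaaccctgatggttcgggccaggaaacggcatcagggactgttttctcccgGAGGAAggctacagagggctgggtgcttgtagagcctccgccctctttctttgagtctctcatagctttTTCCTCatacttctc
The H2-Aa window held 1 CCAAT box, beginning 48 bases before the start, and the H2-Eb1 window held 2, at 59 and 35 bases. The C1qb window held 1 GAGGAA box, at 30 bases, and the Itgam window held 2, at 84 and 15 bases. These are matches of letters, and binding was not measured.

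Libraries held between 24911609 counts (Control 3) and 40460467 counts (iSM KO 1). Values are normalized counts in CPM, in which each gene's count is set against its library total after scaling by edgeR's TMM method. Prdm16 itself was measured at 183, 223 and 179 CPM in the Control aortas and at 93.8, 113 and 79.8 CPM in the iSM KO aortas. It fell in the iSM KO group, with a log2 fold change of -1.03 (SE 0.14, FDR = 0.00264 by edgeR's quasi-likelihood test), and the groups did not overlap. iSM KO 3, the library that stands apart in what follows, had the lowest Prdm16 level of the 6.

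The markers used to label the gene set were present in every aorta. Csf1r, the receptor for the growth factor that keeps macrophages alive, had counts in all 6 libraries, as did the lysosomal glycoprotein Cd68. Of the 31 genes, 26 had more than 10 counts in every library of 1 group or both and were tested, 25 of them through both groups and Aif1 through the Control group alone. The 5 that did not pass this filter were Folr2, Timd4, Fcgr1, Trem2 and Msr1. Levels were low throughout: mean control values of the tested genes ran from 0.533 CPM for Aif1 to 49.9 CPM for Cd74, and 10 of the 26 lay under 2 CPM.

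Levels were compared between genes per kilobase of exon. Cd74 stood highest in Control aortas, at a mean of 29.7 CPM per kb, followed by the macrophage lysozyme Lyz2 at 6.39, the MHC class II beta chains H2-Eb1 at 5.99 and H2-Ab1 at 5.52, and the complement chains C1qa at 4.99 and C1qb at 4.19 CPM per kb. Csf1r was 13th of the 31 at 1.23 CPM per kb and Cd68 14th at 1.18 CPM per kb. Trem2, Msr1 and Timd4 closed the order at 0.073, 0.055 and 0.042 CPM per kb. In 28 of the 30 neighbouring pairs in this order the ranges of the 3 Control mice overlapped, so that the order of most neighbours did not exceed the spread between animals. The Control range of Cd74, 11.6 to 52.4 CPM per kb, lay wholly above that of Lyz2, 5.77 to 7.17 CPM per kb.

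**Figure D1:**
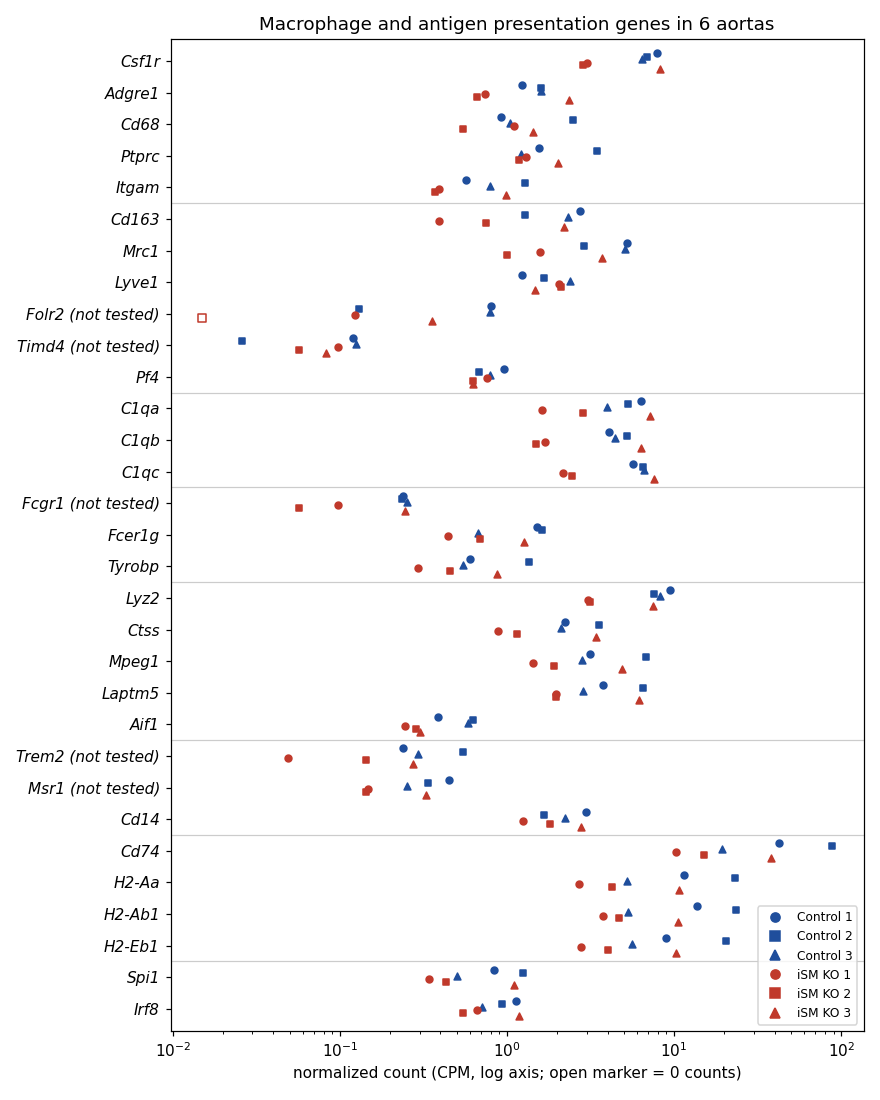
Normalized counts (CPM, logarithmic axis) of the 31 genes in each of the 6 aortas, with Control libraries in blue, iSM KO libraries in red, marker shapes for the replicate number and lines between the roles. For most genes iSM KO 1 and iSM KO 2 lie to the left of the Control libraries and iSM KO 3 lies among or above them, as for Csf1r at 2.99, 2.84 and 8.27 CPM. The open marker is the iSM KO 2 library of Folr2, with 0 counts.

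Across the 26 tested genes the direction was nearly uniform, yet no gene passed the test. The log2 fold change of iSM KO against Control was below 0 for 25 of 26 genes, where 52.4% of all tested genes were below 0, and its median was -0.60 against -0.014 over all 16565 genes tested. Over the 25 genes that passed the count filter in both groups the median was also -0.60, and with no count filter it was -0.62 over all 31, of which 30 were below 0. At an FDR of 0.05, edgeR called 0 of 26 genes in either direction, where 7.56% of all genes tested were called, 4.26% higher and 3.30% lower. With a fold change over 2 as a further condition it called 0 of 26, against 2.78% of all genes. The lowest FDR of a member was 0.146, for Lyz2, and the highest 0.871, for Lyve1. At an unadjusted p under 0.05 there were 4 members, all lower (Mrc1, Lyz2, Aif1 and H2-Ab1), where 11.0% of all genes were lower at that level. Among these 4, Aif1 passed the count filter through the Control group alone. DESeq2 called 1 member lower (Lyz2, FDR = 0.0352), against 4.64% of all genes, and limma-voom called 0, against 3.22% of all genes. In bulk RNA, fewer macrophages and less of each RNA per macrophage cannot be told apart.

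The test was imprecise for these genes. Standard errors of the log2 fold change ran from 0.29 to 0.57 with a median of 0.46, where the median over all genes was 0.145. The 95% interval held 0 for 22 of the 26 genes, reached below -1 for 23 and reached above 1 for 0. A fall to less than 50% of the Control level therefore lay within the interval of most members, and a doubling within that of none. The groups did not overlap, with the iSM KO group lower, for 2 members (Lyz2 and Aif1), where 12.97% of all genes did so. Of these Aif1 passed the count filter through the Control group alone, in which it is high.

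Much of the spread lay in the iSM KO group, in which 1 of the 3 aortas differed from the other two. iSM KO 3 was the highest of the 3 iSM KO libraries in 24 of the 26 genes, where it was highest in 35.2% of all genes tested. Its level divided by the mean of iSM KO 1 and 2 had a median of 2.83 over the members. iSM KO 3 lay within the range of the Control libraries in 17 genes, above all of them in 6 and below all of them in 3. iSM KO 1 and iSM KO 2 both lay below every Control library in 20 of the 26 genes, against 19.4% of all genes, and their mean was a median 0.432 of the Control mean. With iSM KO 3 left out, the median log2 fold change of the members was -1.22, and edgeR called 8 lower (Csf1r, Cd163, Mrc1, C1qa, C1qb, C1qc, Lyz2 and Ctss), each with a fold change over 2, where 3.21% of all genes were called lower in that fit. With any one of the other 5 libraries left out it called 0. iSM KO 3 was singled out by its high values for most of these same genes, so leaving it out lowers their iSM KO mean. The calls without it, here and below, are therefore no independent evidence of a fall.

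The filter on low counts also mattered. With no filter 30727 genes were tested, and 5 members were called lower (Lyz2 with FDR = 0.0173, H2-Ab1 with 0.0219, Cd74 with 0.0245, H2-Aa with 0.0397 and Mrc1 with 0.0403), where 2.81% of all genes were. Only Lyz2 and Mrc1 were called both in that fit and in the fit without iSM KO 3.

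**Figure D2:**
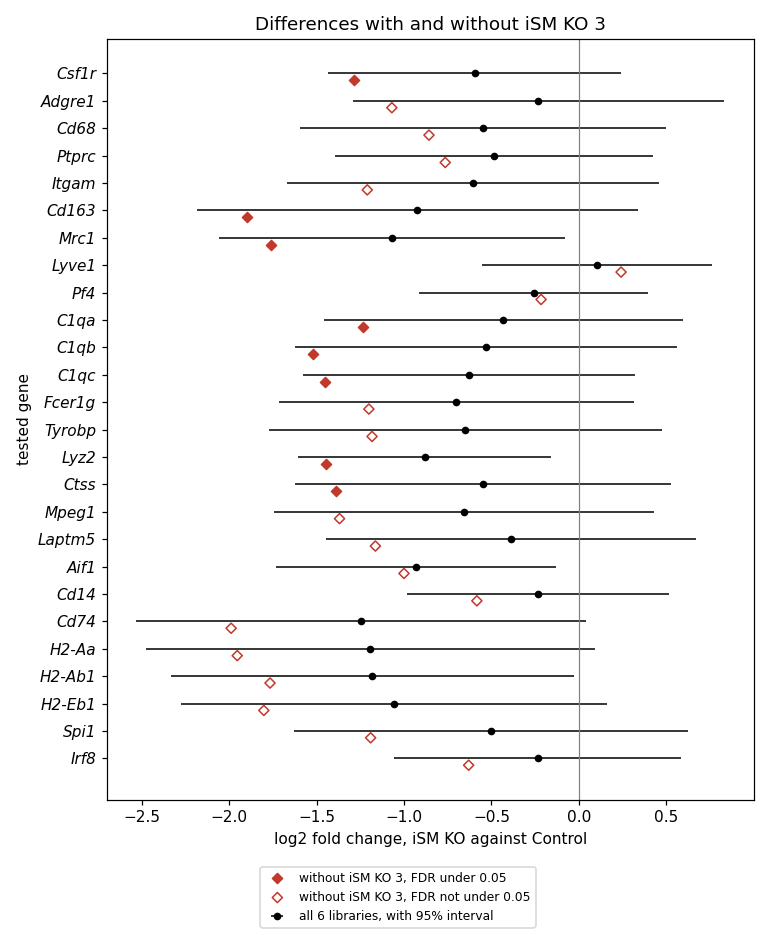
Log2 fold change of iSM KO against Control for the 26 tested genes with all 6 libraries (black points with the 95% interval) and with iSM KO 3 left out (red diamonds, filled where the FDR was under 0.05). Black points lie left of 0 for all genes but Lyve1, most intervals hold 0, and the diamonds of 8 genes are filled.

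Among the lineage receptors and surface markers, all 5 tested genes had log2 fold changes below 0, from -0.61 to -0.23, and none passed. Csf1r was measured at 7.91, 6.90 and 6.46 CPM in the Control aortas and at 2.99, 2.84 and 8.27 CPM in the iSM KO aortas. The first 2 iSM KO aortas lay below every Control aorta and the last above every one, so that the groups overlapped. Its log2 fold change was -0.60 (SE 0.37, FDR = 0.384), and -1.29 (FDR = 0.00547) without iSM KO 3. Adgre1, which encodes the surface antigen F4/80, split in the same manner, at 1.22, 1.59 and 1.59 CPM in Control and 0.736, 0.659 and 2.35 CPM in iSM KO aortas. Its log2 fold change was -0.23 (SE 0.47, FDR = 0.810). Cd68 was spread in both groups, at 0.925, 2.47 and 1.05 CPM in Control and 1.10, 0.544 and 1.42 CPM in iSM KO aortas. Control 2 was the high library there, and also for Ptprc, the phosphatase CD45 that all white blood cells carry, at 1.55, 3.43 and 1.22 CPM in Control and 1.30, 1.18 and 2.03 CPM in iSM KO aortas. The integrin alpha M gene Itgam, a part of complement receptor 3, ran from 0.567 to 1.28 CPM in Control and from 0.373 to 0.986 CPM in iSM KO aortas. For the last 3 genes the log2 fold changes were -0.55, -0.48 and -0.61.

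The resident perivascular markers did not move as 1 group. Mrc1, the mannose receptor, was measured at 5.25, 2.89 and 5.07 CPM in Control aortas and at 1.57, 1.003 and 3.70 CPM in iSM KO aortas. iSM KO 3 lay above Control 2 and below the other two, and the groups overlapped. Its log2 fold change was -1.07 (SE 0.44, FDR = 0.193), and -1.76 (FDR = 0.0222) without iSM KO 3. The haemoglobin scavenger receptor Cd163 split in the same manner, at 2.75, 1.28 and 2.31 CPM in Control and 0.393, 0.745 and 2.19 CPM in iSM KO aortas, with a log2 fold change of -0.92 (SE 0.56, FDR = 0.370).

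Lyve1, a hyaluronan receptor shared by resident macrophages and lymphatic endothelium, was the only tested member with a log2 fold change above 0, at 0.10 (SE 0.29, FDR = 0.871). It was measured at 1.22, 1.67 and 2.39 CPM in Control and 2.04, 2.09 and 1.48 CPM in iSM KO aortas, so that the iSM KO values lay inside the Control range and iSM KO 3 was the lowest of its group. The ratio of Lyve1 to Mrc1 counts within a library was 0.233, 0.577 and 0.471 in Control aortas and 1.30, 2.09 and 0.40 in iSM KO aortas. Pf4, a platelet chemokine that resident macrophages also make, ran from 0.677 to 0.955 CPM in Control and from 0.630 to 0.761 CPM in iSM KO aortas, with a log2 fold change of -0.26 (SE 0.29, FDR = 0.646).

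Folr2, the folate receptor beta of resident macrophages, did not pass the count filter. It had 27, 5 and 19 counts in the Control libraries and 5, 0 and 13 counts in the iSM KO libraries. The 0 counts of iSM KO 2 allow up to 3 counts, for counting error only, and Control 2 with 5 counts lay at the level of iSM KO 1. In the fit with no filter its log2 fold change was -1.80 (FDR = 0.219), the most negative of the 31 genes there. Timd4, a receptor for exposed phosphatidylserine, had 1 to 4 counts in every library.

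The complement component 1q genes encode the A, B and C chains of the recognition molecule of the classical pathway and lie together on the minus strand of chromosome 4, between bases 136880129 and 136898803 of GRCm38, the chromosome that also holds Prdm16. C1qa was measured at 6.30, 5.28 and 3.98 CPM in Control and 1.62, 2.84 and 7.15 CPM in iSM KO aortas. C1qb was measured at 4.06, 5.20 and 4.40 CPM in Control and 1.69, 1.49 and 6.30 CPM in iSM KO aortas. C1qc was measured at 5.64, 6.56 and 6.58 CPM in Control and 2.16, 2.44 and 7.58 CPM in iSM KO aortas. For all 3 chains iSM KO 1 and 2 lay below every Control library and iSM KO 3 above every one. Their log2 fold changes were -0.43, -0.53 and -0.63 with FDRs from 0.421 to 0.618, and from -1.52 to -1.24 without iSM KO 3, when all 3 chains passed. Summed over the chains, the Control aortas lay close together at 16.0, 17.04 and 14.97 CPM, while the iSM KO aortas held 5.47, 6.76 and 21.0 CPM.

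MHC class II and the invariant chain had log2 fold changes from -1.25 to -1.06, with a wide spread between the Control libraries. Cd74 was measured at 42.3, 88.0 and 19.5 CPM in Control aortas and at 10.2, 15.2 and 38.2 CPM in iSM KO aortas. The Control libraries differed among themselves by a factor larger than the difference between the groups, and iSM KO 3 lay between Control 3 and Control 1. The log2 fold change was -1.25 (95% interval -2.53 to 0.039, FDR = 0.239). Counting error was small beside this: the 464 counts behind the lowest Control value have an exact Poisson 95% interval of 423 to 508, which covers counting error only.

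The 3 MHC class II chains followed Cd74 library by library. H2-Aa, the alpha chain of I-A, was measured at 11.5, 23.0 and 5.24 CPM in Control and 2.70, 4.27 and 10.7 CPM in iSM KO aortas. H2-Ab1, its beta chain, was measured at 13.7, 23.5 and 5.33 CPM in Control and 3.75, 4.70 and 10.5 CPM in iSM KO aortas. H2-Eb1, the beta chain of I-E, was measured at 8.93, 20.4 and 5.62 CPM in Control and 2.77, 4.01 and 10.2 CPM in iSM KO aortas. In each of the 4 genes Control 2 was the highest library and iSM KO 1 the lowest, and the groups overlapped. The log2 fold changes of the chains were -1.19, -1.18 and -1.06, with FDRs of 0.258, 0.215 and 0.289. Without iSM KO 3 those of all 4 genes ran from -1.99 to -1.77, with FDRs of 0.0693 to 0.0840. With Control 2 left out instead, they ran from -0.60 to -0.37, with FDRs of 0.486 to 0.687. The ratio of Cd74 to H2-Aa counts varied little between libraries, at 3.73 ± 0.0778 in Control and 3.64 ± 0.125 in iSM KO aortas (SD, n = 3).

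MHC class II did not keep a fixed proportion to the other macrophage genes. The 4 genes summed to 4.78, 9.09 and 2.38 times the C1q genes in the Control aortas and to 3.55, 4.17 and 3.31 times in the iSM KO aortas. All 3 iSM KO values lay inside the Control range. Their share of the summed CPM of the 31 genes was 53.6%, 68.1% and 37.4% in Control and 41.1%, 48.8% and 48.2% in iSM KO aortas. The C1q genes, in contrast, summed to 2.02, 2.47 and 2.32 times Csf1r in Control and to 1.83, 2.38 and 2.54 times in iSM KO aortas, so that C1q and Csf1r kept a similar ratio in aortas whose levels differed several fold. Without the MHC class II genes and Cd74, the summed level of the members was 66.2, 72.4 and 59.5 CPM in Control and 27.8, 29.6 and 74.8 CPM in iSM KO aortas.

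**Figure D3:**
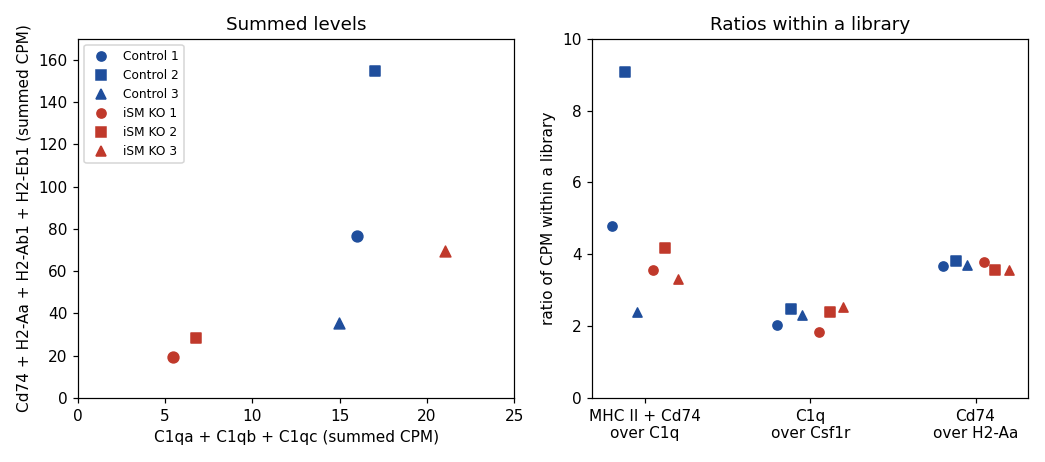
Left, summed CPM of Cd74, H2-Aa, H2-Ab1 and H2-Eb1 against summed CPM of C1qa, C1qb and C1qc in each of the 6 aortas, and right, 3 ratios of CPM within a library. The 3 Control aortas share a C1q level of 14.97 to 17.04 CPM while their MHC class II level runs from 35.6 to 155 CPM, and the ratio of Cd74 to H2-Aa stays near 3.7 in all 6.

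The lysosomal and effector genes included both members whose groups did not overlap. Lyz2, the lysozyme of macrophages and neutrophils, was measured at 9.43, 7.60 and 8.18 CPM in Control and 3.07, 3.12 and 7.50 CPM in iSM KO aortas. All iSM KO aortas lay below all Control aortas, but iSM KO 3 only just. The log2 fold change was -0.88 (SE 0.32, FDR = 0.146), and -1.44 (FDR = 0.00293) without iSM KO 3. Its transcript is 95.8% identical over 1264 bp to that of the second lysozyme gene Lyz1, and some of its deposited counts are fractions, so the split of reads between the pair is uncertain. Aif1, the actin-binding protein IBA1, was measured at 0.388, 0.624 and 0.587 CPM in Control and 0.245, 0.287 and 0.301 CPM in iSM KO aortas. It was the 1 member for which the 3 iSM KO aortas lay together below the Control aortas, on only 10 or 11 counts each. The exact Poisson 95% intervals of Control 1 (0.207 to 0.664 CPM) and iSM KO 3 (0.150 to 0.539 CPM) overlapped. Aif1 passed the count filter only through the Control group, in which it is high, so part of its difference can come from that selection. The log2 fold change of Aif1 was -0.93 (SE 0.35, FDR = 0.163).

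The other lysosomal and effector genes split as Csf1r did. Ctss, the cathepsin that trims the invariant chain, was measured at 2.24, 3.56 and 2.10 CPM in Control and 0.883, 1.15 and 3.42 CPM in iSM KO aortas. Mpeg1, a pore-forming protein of phagosomes, was measured at 3.13, 6.82 and 2.81 CPM in Control and 1.42, 1.92 and 4.85 CPM in iSM KO aortas. Laptm5, a lysosomal membrane protein of blood cells, was measured at 3.76, 6.48 and 2.85 CPM in Control and 1.96, 1.98 and 6.16 CPM in iSM KO aortas. In each, iSM KO 1 and 2 lay below every Control library and iSM KO 3 lay between Control 1 and Control 2. Their log2 fold changes were -0.55, -0.66 and -0.39, with FDRs from 0.464 to 0.668.

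Fcer1g and Tyrobp, the signalling adaptors of Fc and other activating receptors, had log2 fold changes of -0.70 (FDR = 0.400) and -0.65 (FDR = 0.483). Fcer1g was measured at 1.52, 1.61 and 0.671 CPM in Control and 0.442, 0.688 and 1.26 CPM in iSM KO aortas, and Tyrobp at 0.597, 1.35 and 0.545 CPM and 0.294, 0.458 and 0.876 CPM. The high-affinity Fc receptor Fcgr1 had only 6 to 9 counts in the Control libraries and 4, 2 and 9 in the iSM KO libraries.

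Cd14, the co-receptor for endotoxin, was measured at 2.96, 1.67 and 2.22 CPM in Control and 1.25, 1.81 and 2.77 CPM in iSM KO aortas, with a log2 fold change of -0.23 (SE 0.33, FDR = 0.720). Trem2, the lipid receptor of foam cells, had 8, 21 and 7 counts in Control and 2, 5 and 10 counts in iSM KO libraries, and the scavenger receptor Msr1 had 15, 13 and 6 counts and 6, 5 and 12 counts. Neither passed the count filter. In the fit with no filter their log2 fold changes were -1.22 (FDR = 0.451) and -0.75 (FDR = 0.662).

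Both transcription factors had log2 fold changes below 0 and split by library as Csf1r did. Spi1, which encodes PU.1, was measured at 0.836, 1.25 and 0.503 CPM in Control and 0.344, 0.430 and 1.10 CPM in iSM KO aortas, with a log2 fold change of -0.50 (SE 0.50, FDR = 0.596). Irf8, a factor of monocyte and dendritic cell development, was measured at 1.13, 0.937 and 0.713 CPM in Control and 0.662, 0.544 and 1.18 CPM in iSM KO aortas, with a log2 fold change of -0.24 (SE 0.36, FDR = 0.745).

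**Figure D4:**
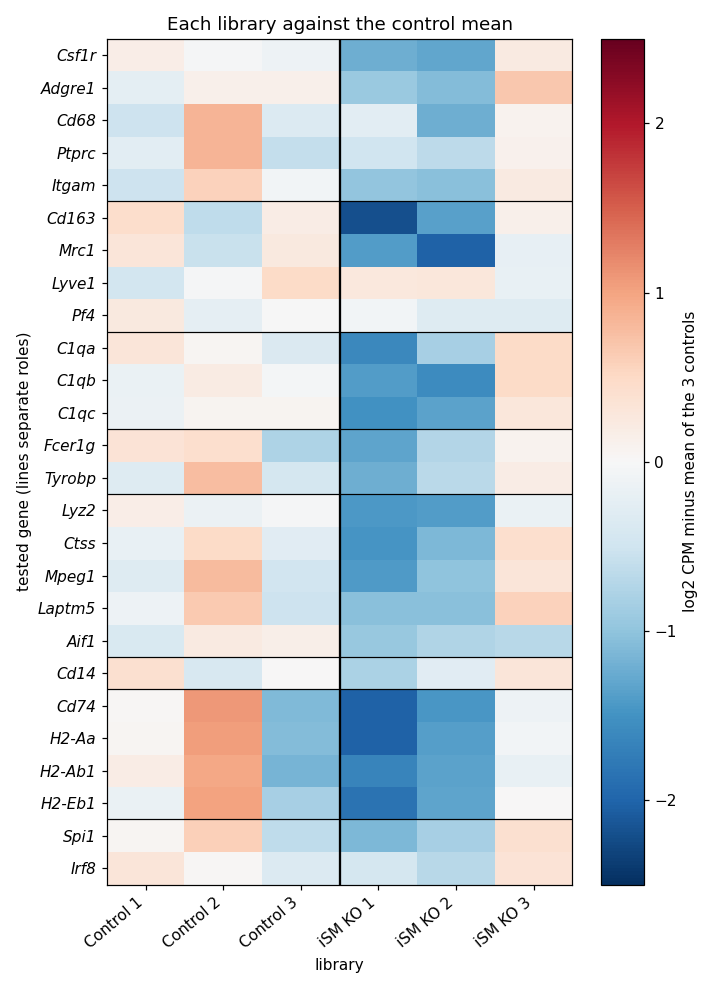
Log2 CPM of the 26 tested genes in each library minus the mean of the 3 Control libraries, with blue below and red above that mean and lines between the roles. The columns of iSM KO 1 and iSM KO 2 are blue for nearly every gene but Lyve1, that of iSM KO 3 is close to the Control columns, and Control 2 is red for the MHC class II genes and blue for Cd163 and Mrc1.

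The Control aortas also differed among themselves. Control 2 was the highest Control library in 15 of the 26 genes, where it was highest in 32.0% of all genes, and these included all 4 MHC class II genes, Ptprc, Cd68, Itgam, Tyrobp and Mpeg1. It was the lowest Control library for the resident markers Cd163, Mrc1 and Pf4, and also for Lyz2 and Cd14. Among the other lists below, the B cell markers were highest in Control 2 of all libraries, at a summed 8.27 CPM against 2.60 and 4.07 CPM in the other Control aortas.

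Other genes of the same pathways were read from lists of names. Of 12 further MHC class II pathway genes 6 were tested, all 6 had log2 fold changes below 0 with a median of -0.67, and edgeR called 0, with 4 lower at an unadjusted p under 0.05, 2 called lower by DESeq2 and 0 by limma-voom. The most abundant were Lgmn, an endosomal protease, and Ifi30, a thiol reductase of antigen processing, with log2 fold changes of -0.31 (FDR = 0.0758) and -0.50 (FDR = 0.0630). All 13 MHC class I pathway genes were tested, all 13 had log2 fold changes below 0 with a median of -0.39, and 2 fell: Tapbp, which holds MHC class I at the peptide transporter, by 0.39 on the log2 scale (FDR = 0.0369), and Erap1, which trims peptides, by 0.39 (FDR = 0.0135).

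Further genes listed as markers of resident macrophages gave calls in both directions. Of 16 listed genes 8 were tested, 1 rose and 2 fell. F13a1, which encodes the A chain of coagulation factor XIII, rose with a log2 fold change of 3.16 (SE 0.12, FDR = 4.07e-06), from 11.3, 9.03 and 10.6 CPM in Control to 89.2, 82.3 and 104 CPM in iSM KO aortas. No member followed that course: F13a1 was high in all 3 iSM KO aortas, among them the 2 in which Mrc1 and Cd163 were lowest. Cbr2 and Gas6 fell, with log2 fold changes of -0.83 (FDR = 0.000918) and -0.48 (FDR = 0.0250). Their mean Control levels were 148 and 331 CPM, against 4.41 CPM for Mrc1, not scaled to exon length. Which cells of the wall the RNA of the called genes came from was not tested. Cd209d, Cd209f, Cd209g, Clec10a, Fcna, Vsig4, Ccl24 and Mgl2 did not pass the count filter. Of 9 growth factors and chemoattractants for macrophages 4 were tested and edgeR called 0, with 1 higher at an unadjusted p under 0.05 and 0 called by DESeq2 or limma-voom. Csf1, a ligand of Csf1r, was measured at 61.7, 69.4 and 48.2 CPM in Control and 75.8, 65.4 and 69.1 CPM in iSM KO aortas. Its log2 fold change was 0.23 (FDR = 0.332). Any part of Csf1 in the Csf1r levels was not tested.

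Of 25 receptors and signalling genes used by macrophages 18 were tested, 15 had log2 fold changes below 0 with a median of -0.50, and edgeR called 0, with 1 lower at an unadjusted p under 0.05 and 0 called by DESeq2 or limma-voom. iSM KO 3 was the highest iSM KO library in 17 of the 18. Of 12 other complement genes 11 were tested, their median log2 fold change was -0.97, and 4 fell, namely C1s1 and C1ra, the proteases that join C1q in the C1 complex, by 1.18 (FDR = 0.00214) and 0.97 (FDR = 0.0215) on the log2 scale, C2 by 1.71 (FDR = 0.0129) and Cfb by 0.92 (FDR = 0.0398). C1s1 was low in all 3 iSM KO aortas, at 11.4, 12.3 and 13.5 CPM against 34.4, 26.4 and 23.0 CPM in Control. Of 15 lysosomal and lipid handling genes, all tested, 2 fell, the cholesterol exporters Abca1 and Abcg1, by 0.95 (FDR = 0.000960) and 1.25 (FDR = 0.0466) on the log2 scale, and the median was -0.24.

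Markers of other cells of the vessel wall showed the same order of the iSM KO libraries. Of 7 endothelial markers all 7 had log2 fold changes below 0 with a median of -0.61 and iSM KO 3 was the highest iSM KO library in 7, with 0 called by edgeR, DESeq2 or limma-voom and 0 at an unadjusted p under 0.05. Their summed level, as a share of its Control mean, was 110%, 128% and 62.1% in Control and 32.6%, 58.6% and 98.5% in iSM KO aortas. For the lymphatic endothelial markers, 4 of 6 tested and 0 called by edgeR or limma-voom, with 1 lower at an unadjusted p under 0.05 and 1 called lower by DESeq2, the summed level was 29.9%, 41.3% and 114% of the Control mean in the iSM KO aortas. For the 8 markers of adventitial fibroblasts, of which Clec3b fell with a log2 fold change of -1.56 (FDR = 0.0349), it was 69.2%, 73.3% and 85.9%. All 8 had log2 fold changes below 0 with a median of -0.65, 7 were lower at an unadjusted p under 0.05, and DESeq2 called 2 lower and limma-voom 0. For the 31 macrophage and antigen presentation genes it was 30.5%, 37.3% and 93.1% in iSM KO and 92.0%, 147% and 61.4% in Control aortas. The part of these other cells, or of how much tissue was left by dissection, in the difference of the macrophage genes was not tested.

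Some lists differed in the order of the iSM KO libraries or in their level against Control. Adipocyte markers were low in all 3 iSM KO aortas, at 19.1%, 16.1% and 23.2% of the Control mean. The Control aortas held 42.1%, 127% and 131%, so that Control 1 stood well below the other Control aortas. Of the 8 tested 6 fell, among them the fatty acid binding protein Fabp4 with a log2 fold change of -2.69 (FDR = 0.00233). iSM KO 3 was the highest iSM KO library in 6 of these 8. Smooth muscle markers summed to 109%, 107% and 99.1% of the Control mean in iSM KO aortas, with 2 of 8 higher (Myocd and Des) and 0 lower. Red blood cell markers summed to 105, 98.2 and 45.2 CPM in Control and 144, 6.73 and 10.35 CPM in iSM KO aortas, with 0 of 5 called. Of 6 cardiomyocyte markers 3 were tested and 1 was higher. Of 5 Schwann cell markers 4 were tested and 0 called, and iSM KO 3 was the highest iSM KO library in all 4. The 5 Schwann cell markers summed to 7.61, 4.92 and 6.33 CPM in Control and 5.13, 5.79 and 10.8 CPM in iSM KO aortas.

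**Figure D5:**
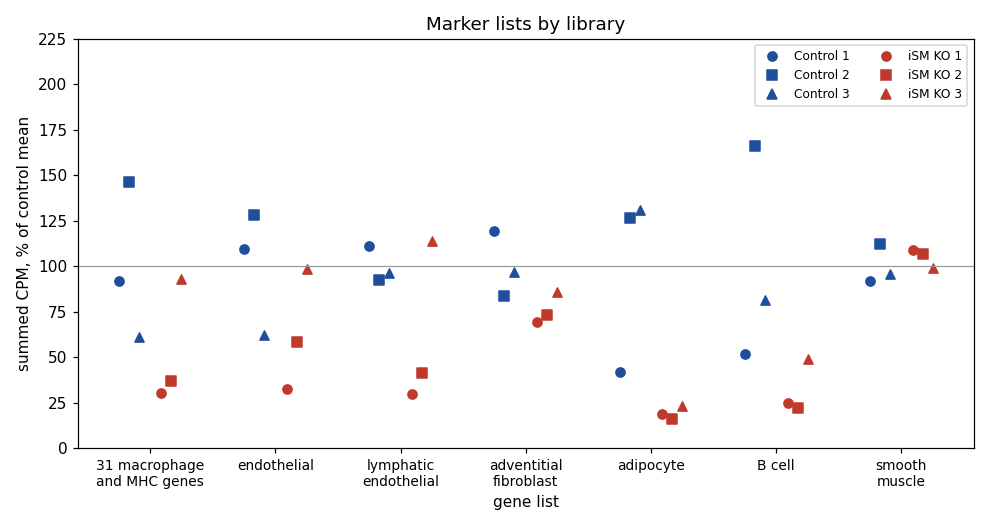
Summed CPM of 7 gene lists in each aorta as a percentage of the mean of the 3 Control aortas (grey line at 100%), with Control in blue and iSM KO in red. For the macrophage and MHC genes, the endothelial and the lymphatic markers, iSM KO 1 and 2 lie at 29.9% to 58.6% and iSM KO 3 at 93.1% to 114%, while the adipocyte markers are low in all 3 iSM KO aortas.

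Some members share sequence with another gene, and their counts rest on how reads were divided. The exons of Csf1r overlap those of Hmgxb3 and those of Folr2 overlap those of Gm10602, in each case on the opposite strand, and Itgam is 99.9% identical over 3454 bp to the overlapping transcript of Gm49368. Fractions among the deposited counts were seen for 3 members, Csf1r, Folr2 and Lyz2.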

How the data were processed

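RNA was sequenced from the aortas of 3 Control and 3 Prdm16 iSM KO mice after depletion of ribosomal RNA. With Illumina DRAGEN, the authors mapped the reads to the mm10 reference of Ensembl release 101 and deposited estimated counts per gene, neither normalized nor rounded. In each library 10.9% to 12.2% of the values were not whole, and the handling of reads with several matching genes is not given in the sources used here. No 2 libraries agreed within sampling noise.

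Rounded counts of the 16565 genes with more than 10 counts in every library of either group entered edgeR 4.0.16 under R 4.3.3 (TMM, glmQLFit, glmQLFTest, no covariates), with Benjamini-Hochberg adjustment over these genes (FDR). An FDR under 0.05 is a call. The standard error is the log2 fold change over the square root of F. The fit was tested on simulated counts. Alternatives were DESeq2 1.42.0, limma-voom (limma 3.58.1), DESeq2 size factors, protein-coding library sizes, no filter, filterByExpr, the replicate number as a block, and leaving out each library. Exon lengths came from GENCODE M21 on GRCm38, promoters from RefSeq, and copies from blastn 2.17.0 (at least 95% identity over 100 bp).

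The 31 genes, the 21 other lists and the naming rule were chosen with earlier results of these data known. The rule was all members, Prdm16, and from each list at most 4 genes past the FDR or else at most 2 of the most abundant.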

Additional observations from a re-analysis of the deposited data

How the results depend on the processing

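Of 338 comparisons of a member's log2 fold change with an alternative, 316 kept direction and side of the FDR, 14 gained a call and 8 changed sign. The signs changed for Lyve1 (-0.096) and Cd14 (0.014) without Control 1, for Cd68 (0.064), Ptprc (0.11) and Laptm5 (0.019) without Control 2, for Adgre1 (0.041) and Cd14 (0.0041) without iSM KO 1, and for Adgre1 (0.064) without iSM KO 2. With single libraries left out these genes ran from -0.096 to 0.36 (Lyve1), from -0.58 to 0.014 (Cd14), from -0.86 to 0.064 (Cd68), from -0.76 to 0.11 (Ptprc), from -1.16 to 0.019 (Laptm5) and from -1.07 to 0.064 (Adgre1). The count of members called lower, 0 with edgeR, was 1 with DESeq2 and 5 with no filter on low counts, 4 of them with a fold change over 2, and ran from 0 to 8 with single libraries left out, as did the count with a fold change over 2. The 8 came without iSM KO 3, and 0 members were called higher under any alternative. The median log2 fold change of the members, -0.60, ran from -1.22 without iSM KO 3 to -0.36 without iSM KO 2. In the other lists 18 of 129 tested genes were lower and 5 higher, where 3.30% and 4.26% of all genes were. With no filter, which tests more genes, 43 were lower, where 2.81% of all genes were. With single libraries left out the lower count ran from 5 (without iSM KO 2) to 29 (without iSM KO 3) and the higher count from 3 to 6. Over all genes 1252 were called with all 6 libraries. This count was 980, 1402 and 852 without Control 1, 2 and 3, and 624, 516 and 1065 without iSM KO 1, 2 and 3. The cause of these shifts was not tested, beyond that fits with fewer libraries hold fewer samples. With the replicate number as a block 0 members were called, 9 genes of the other lists were lower and 772 genes were called in all. Same-numbered mice did not deviate together in expression (correlations of -0.13, -0.045 and -0.11). With 3 mice per group this cannot tell whether same-numbered mice were littermates or were handled together. Depth limits Folr2, Timd4, Fcgr1, Trem2 and Msr1, and Aif1 rests on 10 to 24 counts a library.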

Other observations

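Neutrophil and mast cell markers had few counts in all 6 aortas. Of 10 neutrophil markers 0 reached the count needed for a test and the largest count in any library was 12. Of 7 mast cell markers 0 were tested, with a largest count of 27, for the protease Cpa3 in Control 1. The chymase Cma1, another mast cell protease, had 13, 5 and 16 counts in the Control libraries and 0, 0 and 2 counts in the iSM KO libraries. Of 10 monocyte markers 1 was tested and of 10 dendritic cell markers 4, which Zbtb46, a factor also made by endothelium, led at 20.6 to 23.1 CPM, with 0 called by edgeR, DESeq2 or limma-voom and 0 at an unadjusted p under 0.05.

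The lymphocyte lists held 1 call in each direction. Trac, the constant segment of the T cell receptor alpha chain, rose with a log2 fold change of 2.95 (SE 0.38, FDR = 0.00214 by edgeR), from 3, 5 and 2 counts in the Control libraries to 37, 26 and 30 counts in the iSM KO libraries. Trac passed the count filter only through the iSM KO group, in which it is high, so a difference was built into its passing. The other T and NK cell markers did not pass the filter, and Cd3e, a part of the receptor complex that T cells need to carry that chain on their surface, had 0, 3 and 4 counts in Control and 5, 8 and 0 counts in iSM KO libraries. Ighm, the heavy chain of IgM in B cells, fell with a log2 fold change of -1.83 (SE 0.42, FDR = 0.0329), from 2.33, 6.38 and 3.40 CPM in Control to 0.810, 0.888 and 1.73 CPM in iSM KO aortas. Ighm thus stood below every Control library in all 3 iSM KO aortas. Summed over the B cell list, the levels were 2.60, 8.27 and 4.07 CPM in Control and 1.25, 1.12 and 2.44 CPM in iSM KO aortas. The part of B cells in the levels of the MHC class II genes was not tested. Cpa3, Cma1 and Cd3e were named after their counts were seen.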
